A study of Drosophila melanogaster with 2 samples.

Results

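Distal intergenic peaks of the tagged CG7271 protein were the peaks that passed the authors' irreproducible discovery rate (IDR) step and lay away from every annotated gene. A peak was a member where its summit was more than 500 bp from every transcription start site (TSS) in the Ensembl gene models of dm6 and outside every gene body, with transposable elements not counted as genes. These criteria held for 356 of 2445 IDR peaks (14.6%). The other IDR summits comprised 1279 within 500 bp of a TSS (promoter peaks, 52.3%), 715 in introns (29.2%) and 95 in exons (3.89%).

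The data are chromatin immunoprecipitation and sequencing (ChIP-seq) of whole Drosophila melanogaster embryos collected between 0 and 4 hours of age. The flies stably carried a transgene that makes CG7271 with GFP fused to its C-terminus. There was 1 group with 2 biological replicates, numbered 2 and 3, and no second genotype, stage or treatment to compare with it. The description names an anti-GFP antibody, whereas the antibody label names CG7271, and the description was followed. Whole embryos hold all of their cell types together, and the collection spans the period before and after the main onset of zygotic transcription. Which cells bound the protein at a given peak was therefore not measured. The alignment of a control experiment was used upstream, and its library was not analysed here. Each replicate list and the pooled list held 30000 peaks, and the depth of sequencing is unknown because the files hold no read counts.

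CG7271 encodes a protein with C2H2 zinc fingers, a class of domain that commonly contacts DNA. In the fly genome, intergenic sequence far from start sites holds many enhancers, which raise transcription of a gene from a distance, as well as insulators, silencers and promoters of transcripts that the annotation lacks. Genes that pattern the early embryo often have several enhancers spread over a long intergenic interval. Binding seen by ChIP-seq at such a place does not by itself show which gene, if any, it acts on.

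The sequences of 3 of the strongest members show how much the bound sites differ in base composition. Each is the 101 bp window centred on the summit, from the RefSeq copy of dm6, plus strand, in lower case. The window near sp3 (chr3R:21520295-21520395) had a GC content of 43.6%, and the one near jp (chr2L:9567461-9567561), the junctophilin gene, had 42.6%. The window between Delta and CG43203 (chr3R:19339354-19339454) had 25.7%. The members that lie between these in signal, near CycB, CG31668 and DNAlig3, are not printed and had 26.7%, 26.7% and 24.8%.
sp3: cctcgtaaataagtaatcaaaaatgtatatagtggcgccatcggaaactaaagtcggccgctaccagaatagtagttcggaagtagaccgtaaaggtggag
jp: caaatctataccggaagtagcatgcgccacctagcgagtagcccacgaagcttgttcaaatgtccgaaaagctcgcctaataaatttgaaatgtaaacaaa
Delta to CG43203: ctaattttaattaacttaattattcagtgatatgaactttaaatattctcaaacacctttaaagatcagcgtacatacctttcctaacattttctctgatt

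A second set shows the 4 GC-containing 8-mers CGGAAACG, CCGTTTCC, ACCGGAAA and AACCGGAA that were more frequent at members than beside them. Capitals mark a match to any of these 8-mers on either strand. The windows lie near CG12617 (chr2L:20287327-20287427), near cpo (chr3R:17919199-17919299), which encodes an RNA-binding protein, near CG11349 (chr3L:4475095-4475195) and near CG4702 (chr3R:12121320-12121420). Further windows lie near Nepl4 (chr2L:6367075-6367175), near CG5674 (chr2L:17960356-17960456) and near Gdi (chr2L:9490992-9491092). In the CG12617 window 2 copies overlap in 1 run, and in the Nepl4 window the match occurs at 2 separate places.
CG12617: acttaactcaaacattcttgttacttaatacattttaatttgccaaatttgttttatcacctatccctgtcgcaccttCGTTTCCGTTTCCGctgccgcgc
cpo: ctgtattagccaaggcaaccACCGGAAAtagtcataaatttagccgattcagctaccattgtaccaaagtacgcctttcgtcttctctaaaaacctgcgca
CG11349: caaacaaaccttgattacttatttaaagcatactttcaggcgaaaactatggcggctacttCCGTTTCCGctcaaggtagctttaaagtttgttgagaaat
CG4702: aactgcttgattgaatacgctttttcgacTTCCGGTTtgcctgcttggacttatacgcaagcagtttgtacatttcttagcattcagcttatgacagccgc
Nepl4: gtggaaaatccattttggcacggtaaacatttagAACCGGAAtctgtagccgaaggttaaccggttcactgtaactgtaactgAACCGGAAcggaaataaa
CG5674: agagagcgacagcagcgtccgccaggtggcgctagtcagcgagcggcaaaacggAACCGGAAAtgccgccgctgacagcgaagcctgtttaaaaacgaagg
Gdi: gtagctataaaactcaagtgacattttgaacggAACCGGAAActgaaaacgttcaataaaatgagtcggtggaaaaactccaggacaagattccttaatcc

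Another set shows TTTATG, the motif of the homeodomain factor Caudal among those searched, in capitals on either strand. The windows lie between the Hox gene Scr and the pair-rule gene ftz (chr3R:6857574-6857674), near slp1 (chr2L:3827827-3827927), which encodes a forkhead factor of the pair-rule class, and near RasGAP1 (chr3L:9855900-9856000).
Scr to ftz: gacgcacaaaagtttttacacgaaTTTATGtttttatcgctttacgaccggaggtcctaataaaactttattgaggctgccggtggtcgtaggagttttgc
slp1: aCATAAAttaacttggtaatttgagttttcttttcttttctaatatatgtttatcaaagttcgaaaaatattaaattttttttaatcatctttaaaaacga
RasGAP1: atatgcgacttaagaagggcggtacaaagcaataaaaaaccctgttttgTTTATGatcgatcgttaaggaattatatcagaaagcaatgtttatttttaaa

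The strongest members stood beside genes of several kinds. The authors' signal has no stated scale and serves here to order peaks within 1 list, not to compare lists. The highest member had its summit 583 bp upstream of sp3, in the interval between sp3 and the homeobox gene C15. Its signal was 748.3, at rank 14 of the IDR list, and it ranked 18 in replicate 2 (signal 433.6) and 15 in replicate 3 (signal 314.3). The next stood 3334 bp downstream of the TSS of CycB, the mitotic cyclin gene, and just past its end. Its signal was 725.8, at rank 20, and it ranked 23 in replicate 2 and 17 in replicate 3. Next came a summit 13187 bp from the TSS of Delta, which encodes a ligand of Notch, although the nearest TSS was that of lncRNA:CR43258 at 9668 bp. Its signal was 689.4, at rank 25, and it ranked 24 in replicate 2 and 32 in replicate 3. All 3 of these peaks were thus among the highest of both libraries.

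Among the remaining members of the 20 highest, the summit 11969 bp downstream of the TSS of croc, a forkhead factor gene of the embryonic head, had a signal of 501.6 (rank 69). A summit between CG13321 and Psc had 485.0 (rank 74), and another between Su(z)2 and CG13323 had 400.4 (rank 151). Psc and Su(z)2 encode related Polycomb group proteins, which help keep genes repressed. The summit between Scr and ftz had a signal of 481.5 (rank 77), with lncRNA:CR45900 as the nearest gene. On chromosome 4, a summit 3903 bp upstream of zfh2, a zinc finger homeodomain gene, had 479.1 (rank 80). A summit 2202 bp downstream of the slp1 TSS had 427.3 (rank 122). A summit between CG14762 and the homeobox gene Optix had 426.1 (rank 123), nearest to CG14762 at 640 bp.

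The interval between knrl, a nuclear receptor gene related to knirps, and CG13251 held a summit with 407.9 (rank 140), 708 bp from lncRNA:CR44684. The summit 583 bp upstream of cpo had 407.2 (rank 141), and the one between the Sox factor gene SoxN and CG32986 had 385.2 (rank 160). Further neighbours were CG31668 (signal 625.7, rank 37), the DNA ligase gene DNAlig3 (527.1, rank 59), jp (512.8, rank 65) and CG12617 (486.0, rank 72). They also included Spn28B with lncRNA:CR46535 (470.9, rank 86), CG43131 (463.6, rank 91) and the muscle gene Zasp52 (416.9, rank 131). The last of these summits lay 13611 bp from the nearest Zasp52 TSS, past the end of the gene.

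Both replicates recorded nearly all members, which the IDR step on these same replicates favours. A summit within 100 bp was present in the full replicate 2 list for 352 members and in that of replicate 3 for 349. Both lists held 345 (96.9%, exact 95% interval 94.5 to 98.4%), and no member was missing from both. Median distances to the replicate's own summit were 11.0 bp in replicate 2 and 13.0 bp in replicate 3. The 100 bp limit bounded these distances. Ranks were not bounded in that way and varied widely. In replicate 2 they ran from 18 to 9251 with a median of 1350, and in replicate 3 from 15 to 21808 with a median of 1390. Spearman's rho between the replicates' signals was 0.58 over the 345 members found in both, given as a description only, since the members were selected through the pooled signal and neighbouring peaks are not independent.

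**Figure D1:**
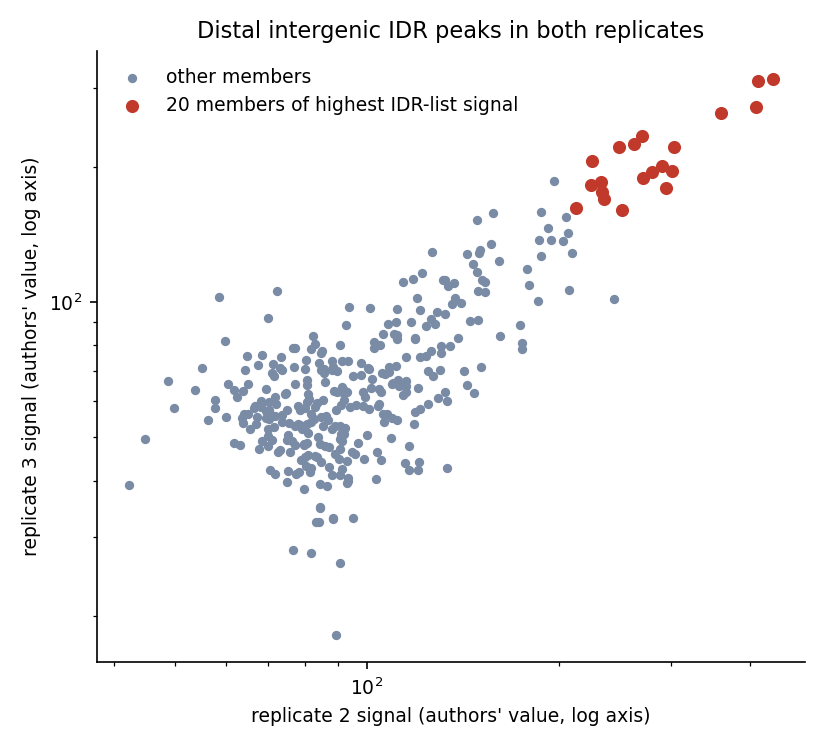
Signal of distal intergenic IDR peaks in replicate 2 (horizontal, authors' value, log axis) and in replicate 3 (vertical, authors' value, log axis), 1 point per member found in both lists (n = 345), with the 20 members of highest IDR-list signal in red. The red points sit at the upper right, and the spread across the diagonal widens among weaker members.

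Among the 2445 highest peaks of each replicate, 229 members were present in both (64.3%, 59.1 to 69.3%), 64 in replicate 2 only, 54 in replicate 3 only and 9 in neither. Distal intronic peaks were in both in 65.7% of cases (odds ratio 0.940, 95% interval 0.720 to 1.23; p = 0.683 by Fisher's exact test), and promoter peaks in 65.3% (odds ratio 0.959, 0.750 to 1.23; p = 0.753 by Fisher's exact test). No difference in replicate support was detectable against either class. All of these classes had passed the same IDR step on these replicates, which limits how far they could differ.

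Members were not detectably weaker or stronger than intronic peaks. Their signals ran from 115.6 to 748.3, with a median of 152.0 and quartiles of 130.0 and 198.0. The medians were 157.0 in introns and 158.4 at promoters. Above the median of the whole IDR list stood 167 members (46.9%, 41.6 to 52.2%), against 49.8% of intronic peaks (odds ratio 0.891, 0.691 to 1.15; p = 0.399 by Fisher's exact test) and 50.9% of promoter peaks (0.852, 0.674 to 1.08; p = 0.188 by Fisher's exact test). With the upper quartile of the list's signal as the limit the odds ratio against promoter peaks was 0.719 (p = 0.0232 by Fisher's exact test), and with classes made without replicate 2 it was 0.709 (p = 0.00541). With classes made without replicate 3 the odds ratio against promoter peaks was 0.848 (p = 0.179 by Fisher's exact test). Each of these odds ratios against promoter peaks was below 1, but whether the difference was called depended on the setting. Members, which are 14.6% of the IDR list, made up 13 of its 100 highest peaks and 62 of its 500 highest. Intronic peaks (29.2% of the list) made up 14 and 135 of these, and promoter peaks (52.3%) 70 and 280. At most members (308) the deposited peak had the full width of 380 bp.

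Members lay at a median of 3078 bp from the nearest TSS, with quartiles of 1453 and 6560 bp and a maximum of 37263 bp. For position, the background was the 5639 distal intergenic peaks of the pooled list that overlapped no IDR peak. They lay at a median of 3329 bp. The IDR list consists of the top 2445 peaks of the pooled list by signal, so both sets differ in signal by construction. A TSS was over 5 kb away for 33.4% of members and 35.1% of the others (odds ratio 0.926, 0.738 to 1.16; adjusted p = 0.956 by Fisher's exact test). Intergenic intervals over 10 kb held 59.3% and 59.0% (odds ratio 1.01; adjusted p = 0.956 by Fisher's exact test), and the median interval was 12275 bp for members and 12463 bp for the others. Between divergent genes lay 24.7% and 26.0% (adjusted p = 0.618 by Fisher's exact test), between tandem genes 54.8% and 50.6% (adjusted p = 0.292), and between convergent genes 20.2% and 23.3% (adjusted p = 0.292). None of these places was called different, nor was the side of the nearest TSS, which was upstream for 60.4% and 60.6% (p = 0.955 by Fisher's exact test).

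The chromosome arms held unequal numbers of members. There were 113 on 3L, 95 on 2L, 75 on 3R, 46 on 2R, 22 on X and 5 on chromosome 4. Per megabase of intergenic sequence this was 11.3 on 3L, 12.5 on 2L, 8.58 on 3R, 5.53 on 2R, 3.68 on X and 17.6 on chromosome 4. The X held 6.18% of members and 9.47% of the other distal intergenic peaks (odds ratio 0.630, with a 95% interval of 0.405 to 0.978). A two-sided Fisher's exact test gave p = 0.0379 before and 0.202 after adjustment over the 6 arms, so no arm was called different.

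The nearest TSS belonged to a protein-coding gene for 222 members, to a non-coding RNA gene for 126, to a tRNA gene for 7 and to a pseudogene for 1. Non-coding RNA genes were nearest for 35.4% of members and 29.3% of the other peaks (odds ratio 1.32, 1.06 to 1.66; p = 0.0165 by Fisher's exact test). This comparison was made after the counts had been seen. It did not hold against the 356 distal intergenic peaks ranked directly below the IDR list (odds ratio 1.27, exact test, p = 0.150). It did not hold either without replicate 2 (1.17, exact test, p = 0.168) or without replicate 3 (1.14, exact test, p = 0.270).

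Many members shared an interval. The 356 fell into 251 intervals between neighbouring protein-coding genes, of which 186 held 1 member, 37 held 2, 20 held 3, 4 held 4 and 4 held 5. Another member's summit lay within 1000 bp of 32 members and within 5000 bp of 118, and any other IDR summit within 1000 bp of 40. Tests over peaks treat these as independent, which they are not. Such counts are not given here for the other distal intergenic peaks. Whether members share intervals more often than those peaks do was therefore not tested.

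Between the T-box genes Doc2 and Doc1, which act in the dorsal ectoderm and amnioserosa, 5 members spanned 13313 bp on 3L. From Doc2 to Doc1 their signals were 171.5, 213.7, 129.0, 289.8 and 284.9. The 2 strongest were the last of this order. The member of 289.8 had its nearest TSS at Doc2, 10150 bp away, and the member of 284.9 had it at lncRNA:CR46451, 6431 bp away. Their ranks were 282 and 351 in replicate 2 and 428 and 314 in replicate 3.

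The interval between RFeSP and chinmo, a BTB zinc finger gene, held 4 members with signals of 153.5, 167.0, 244.4 and 128.9, the weakest of which had no summit within 100 bp in replicate 3. CG43131 and RabGGTa flanked 4 members, with signals of 158.1, 463.6, 173.3 and 137.0, so that 1 strong peak stood among weaker ones.

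In another 4 intervals with 4 or 5 members no signal reached that of the strongest Doc2 to Doc1 member. Signals ran from 124.3 to 259.9 in 5 members between the cuticle protein gene Cpr35B and CG15283, and from 116.2 to 257.0 in 5 between NijA and CG43245. They ran from 121.6 to 174.0 in 5 between CG6739 and Slob, and from 115.6 to 166.8 in 4 between CG7320 and CheA75a. Some of these ranked low in 1 library. A Cpr35B member of signal 124.3 ranked 1393 in replicate 2 and 9514 in replicate 3, and another of 137.7 ranked 7966 in replicate 2 and 2315 in replicate 3.

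**Figure D2:**
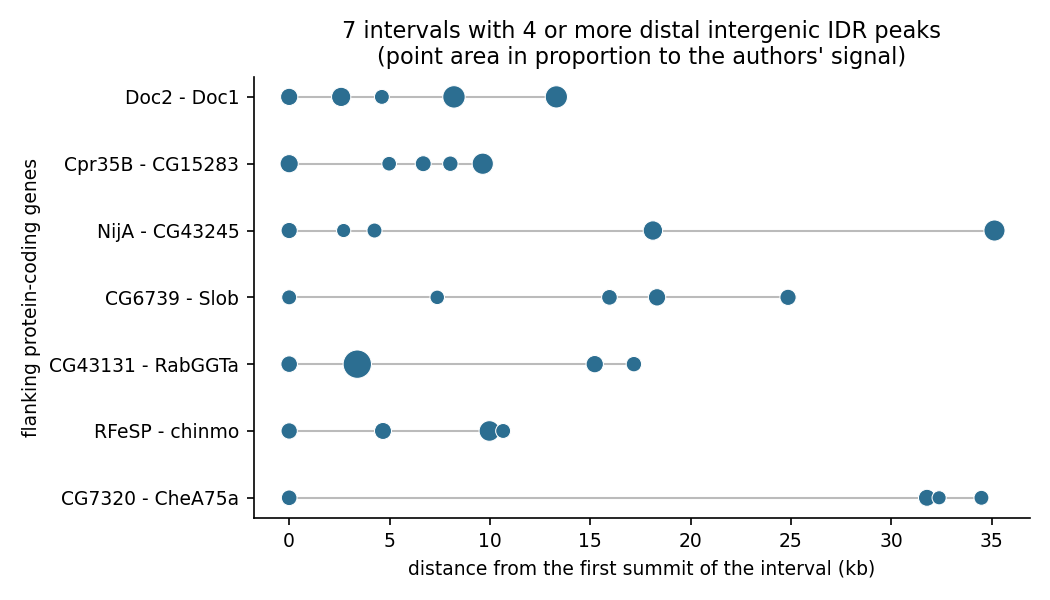
Members in 7 of the 8 intervals that hold 4 or more, named by the flanking protein-coding genes, with distance from the first summit of the interval in kb on the horizontal axis and point area in proportion to the authors' signal. The strongest point, 463.6, is in the interval between CG43131 and RabGGTa, and the widest spread, 35143 bp, is between NijA and CG43245.

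The genes nearest to members were counted in 19 lists, and the same was done for the 5639 other distal intergenic peaks. The lists were chosen with earlier results of these data known, and the counts carry no test. Over the first 9 lists, which hold patterning and signalling genes, 37 members (10.4%) had a listed gene as the nearest, against 5.34% of the other peaks. Counting either flanking protein-coding gene, it was 70 members (19.7%) against 14.1%. Among the 100 members of highest signal, 23 had a listed gene at either side.

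Gap and head gap genes, which divide the embryo into broad regions, were nearest for 12 members (3.37%, against 1.58% of the other peaks) at 8 genes. The 3 strongest were those at croc, slp1 and slp2, with signals of 501.6, 427.3 and 338.4. Further members lay at ems (129.9), hkb (181.0), kni (152.1 and 135.2), oc (175.3, 170.3 and 118.2) and tll (131.6). Those at slp1 and slp2 shared an interval, as did those at kni and 2 of those at oc, so these are not independent. The slp1 and slp2 members count again among the pair-rule genes. The summit at tll was 555 bp from its TSS, close to the limit that defines a distal peak.

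Pair-rule genes, which set up the segments in alternate stripes, were nearest for 7 members (1.97%, against 0.887%). After the slp1 and slp2 members, the next lay 3336 bp upstream of opa, which encodes a zinc finger factor, with a signal of 210.0 (rank 645). At hry, the hairy gene, lay a member with 195.3 and another with 147.0. Segment polarity genes were nearest for 5 members (1.40%, against 0.975%). The strongest were at the T-box gene mid (223.0, 12445 bp downstream), the homeobox gene slou (178.9) and the Wnt gene wg (164.1, 11050 bp upstream).

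Dorsoventral patterning genes were nearest for 9 members (2.53%, against 0.638%) at 5 genes. Several of these members lay at Doc2 within a single interval and are not independent. Besides Doc2 the genes were ths, an FGF ligand gene (222.7, 13937 bp upstream), the EGF receptor ligand gene vn (184.0), the GATA factor gene srp (184.6) and zen (166.7). The member at zen, 1493 bp upstream, was also the single one nearest to a gene of the Hox list (0.281%, against 0.514%). Members beside Hox genes whose nearest TSS was that of a long non-coding RNA lay near abd-A (257.9), Antp (133.0) and Dfd (130.6), besides the one near Scr.

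Genes of the Notch pathway were nearest for 2 members (0.562%, against 0.355%) and flanked 8 (2.25%, against 0.798%). The nearest ones were Tom, of the Bearded family of Notch pathway inhibitors (329.0), and E(spl)malpha-BFM (167.9). Early chromatin factors and zinc finger pioneers were nearest for 5 members (1.40%, against 0.567%) and flanked 12 (3.37%, against 1.60%), with Polycomb genes ph-d (290.2), Psc and Su(z)2 among them. Proneural genes were nearest for 3 (0.843%, against 0.887%), at dpn (174.0), Dr (148.4) and esg (133.9). Ligand and receptor genes were nearest for 5 (1.40%, against 0.958%) and the cellularisation list for 1 (0.281%, against 0.213%).

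Counted by either flanking protein-coding gene, the lists did not all lie on the same side of the other peaks. The share was higher for members with gap genes (5.34%, against 3.60%), pair-rule genes (3.65%, against 2.61%), dorsoventral genes (3.93%, against 1.56%) and proneural genes (3.65%, against 2.06%). It was lower with segment polarity genes (1.69%, against 2.25%), Hox genes (1.69%, against 2.54%), ligand and receptor genes (1.40%, against 1.74%) and the cellularisation list (0.281%, against 0.390%). Segment polarity, ligand and receptor and cellularisation genes thus stood above the other peaks by nearest TSS and below them by flanking gene.

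**Figure D3:**
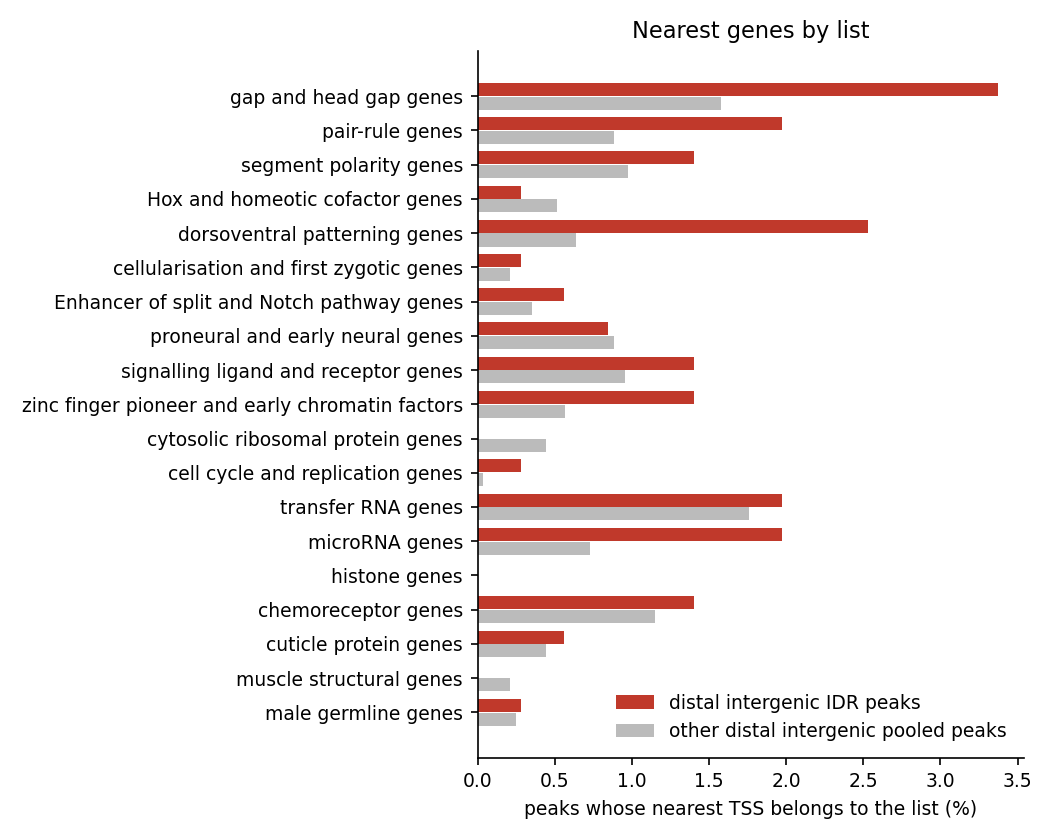
Share of peaks (horizontal, %) whose nearest TSS belongs to each of 19 gene lists, with distal intergenic IDR peaks (n = 356) in red and the other distal intergenic pooled peaks (n = 5639) in grey. Gap genes (3.37%), dorsoventral genes (2.53%), pair-rule, tRNA and microRNA genes (1.97% each) have the longest red bars.

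By nearest TSS, the lists that served as contrasts ranged from 0 to 7 members. By flanking protein-coding gene, cuticle protein genes (1.97%, against 1.06%), cell cycle genes (0.562%, against 0.142%) and male germline genes (0.562%, against 0.479%) stood above the other peaks. Chemoreceptor (2.25%, against 2.80%), ribosomal protein (0.281%, against 1.03%), muscle (0%, against 0.301%) and histone genes (0%, against 0.124%) stood below them. The following counts are by nearest TSS. No cytosolic ribosomal protein gene was nearest to a member, against 0.443% of the other peaks, and no muscle structural gene was, against 0.213%. Histone genes were nearest to none of either set. Cell cycle genes had 1 (CycB, 0.281%, against 0.0355%) and male germline genes 1 (nht at 117.7, 0.281%, against 0.248%). Cuticle protein genes had 2 (0.562%, against 0.443%), which were Cpr76Ba at 353.5 and Cpr65Eb at 119.3. Chemoreceptor genes had 5 (1.40%, against 1.15%), the strongest at Gr93d (157.2). Transfer RNA genes had 7 (1.97%, against 1.76%), the strongest 568 bp upstream of tRNA:Leu-CAA-2-2 (184.6). MicroRNA genes had 7 (1.97%, against 0.727%), with mir-ban (163.9), mir-2281 (152.8) and mir-957 (151.0) the highest. The member nearest to CG7271 itself (chr3L:18588759-18590165), where a transgene copy might add signal, lay 37301 bp away and had AstC-R1 as its nearest gene (rank 1569).

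Members had fewer G and C bases at the summit than beside it. GC content was 35.2% ± 10.6 (SD, n = 356) in the 101 bp windows and 40.8% ± 9.60 in windows of the same size centred 500 bp to either side. It was lower than the mean of the member's own flanks in 220 cases, higher in 132 and equal in 4 (exact binomial test, p = 3.16e-06), with a mean difference of -5.57 ± 13.7 percentage points (SD). The range was wide, from 11.9 to 69.3%, and 130 members (36.5%) were under 30%. The mean was 33.3% ± 9.12 at intronic summits, 35.2% ± 11.2 at promoter summits and 39.3% ± 9.92 at the other distal intergenic summits. Around promoter peaks the flanks were richer in GC, at 45.2%.

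**Figure D4:**
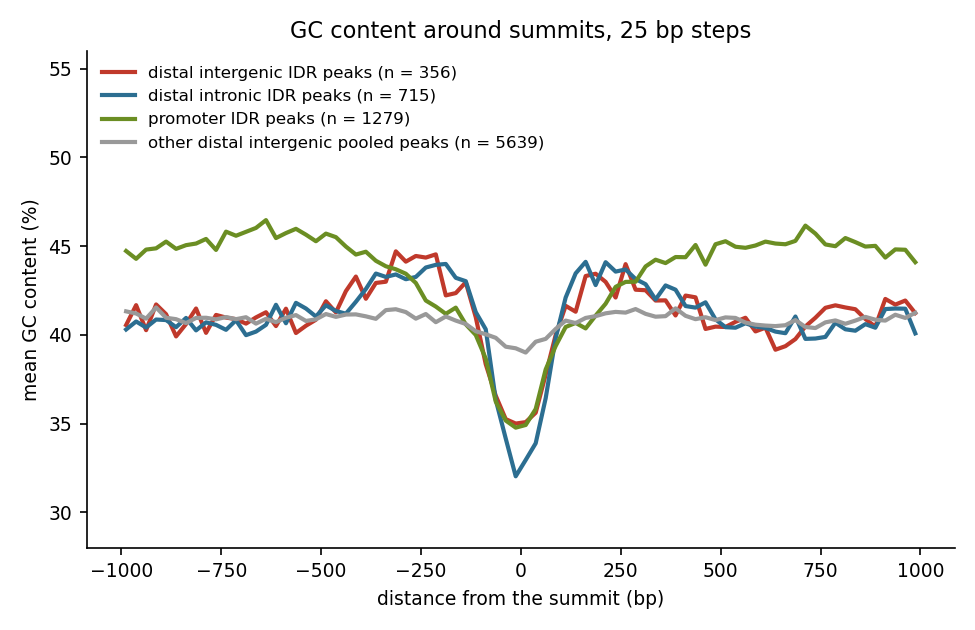
Mean GC content (%) in 25 bp steps within 1000 bp of the summit (distance in bp) for distal intergenic IDR peaks (n = 356), distal intronic IDR peaks (n = 715), promoter IDR peaks (n = 1279) and other distal intergenic pooled peaks (n = 5639). The 3 IDR classes fall at the summit, while the grey line of the other peaks stays nearer to its surroundings.

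A list of 22 motifs was then searched in the 101 bp windows on both strands. Against the flanks, 4 motifs were called (18.2%, adjusted p under 0.05 over the list), and 3 of these were higher at members. TTTATG (Caudal) was in 78 members (21.9%), against 13.2% of flanks (odds ratio 1.84, 1.32 to 2.57; adjusted p = 0.00429 by Fisher's exact test). The exact paired test on windows of the same member gave adjusted p = 0.0212 for the left flank and 0.0215 for the right. Against the other distal intergenic summits, compared in strata of equal GC count by the exact form of the Cochran-Mantel-Haenszel test, its odds ratio was 1.69 (adjusted p = 0.00373). In those strata 2 of 22 motifs were called (9.09%). The other was the run AAAAAAA, of the type that Hunchback binds, in 7.87% of members and 10.3% of the other summits (odds ratio 0.545, exact stratified test, adjusted p = 0.0372). It was in 7.72% of the flanks, and the chi-square form of the stratified test did not call it (adjusted p = 0.0644, against the exact value above). The TTTATG call was lost among members above the median signal of the IDR list, where the odds ratio was 1.85 (adjusted p = 0.220 by Fisher's exact test).

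The remaining motifs called against the flanks were not called against the other distal intergenic summits in strata of equal GC count. That comparison differs from the first in its set of windows as well as in the GC strata, and these were not separated. TATAAA, the TATA box, was in 21.6% of members and 11.2% of flanks (odds ratio 2.18, 1.55 to 3.07; adjusted p = 2.17e-04 by Fisher's exact test), and in 16.2% of the other summits, where at equal GC count its odds ratio was 0.958 (exact stratified test, adjusted p = 0.938). The homeodomain motif TAATTA was in 12.1% and 7.02% (odds ratio 1.82; adjusted p = 0.0430 by Fisher's exact test) and stood at 1.29 against the other summits at equal GC count (exact stratified test, adjusted p = 0.848). Against the flanks without replicate 2 it stood at 1.40 (adjusted p = 0.382 by Fisher's exact test) and without replicate 3 at 1.27 (adjusted p = 0.794). The Stat92E motif TTCNNNGAA was rarer, in 1.12% of members and 4.63% of flanks (odds ratio 0.234; adjusted p = 0.0161 by Fisher's exact test). Against the other summits at equal GC count it stood at 0.351 (exact stratified test, adjusted p = 0.232), and against the flanks without replicate 2 at 0.452 (adjusted p = 0.382 by Fisher's exact test). In the exact paired test on windows of the same member, TATAAA had adjusted p = 0.0212 for the left flank and 0.00122 for the right. By that test TAATTA had 0.507 and 0.0295, and TTCNNNGAA 0.507 and 0.0100, so both were called against the right flank only.

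Members were also compared with promoter peaks. Against promoter IDR summits 5 of 22 motifs were called (22.7%). The DNA replication-related element (DRE, TATCGATA), bound by Dref, was in 1 member (0.281%) and in 3.99% of promoter summits (odds ratio 0.0678; adjusted p = 5.92e-04 by Fisher's exact test). GGTCACAC, the motif of the promoter protein M1BP, was in 1 member and in 2.97% of promoter summits (0.0920; exact test, adjusted p = 0.00698). CGATA, the motif of the insulator protein BEAF-32, was in 9.83% and 20% (0.436; exact test, adjusted p = 7.59e-05). CGATA lies within TATCGATA, so these counts overlap. The palindromic E-box CAGCTG was in 1.97% and 5.24% (0.363; exact test, adjusted p = 0.0268). TTTATG was more frequent at members, in 21.9% and 13.8% (1.75; exact test, adjusted p = 0.00264). Against distal intronic summits Fisher's exact test called 0 of 22 motifs, while 2 had an unadjusted p under 0.05. TTTATG was in 18.7% of the intronic summits (odds ratio of members against them 1.22; adjusted p = 0.818 by Fisher's exact test), so its share was not detectably particular to members.

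Motifs of other early regulators did not differ detectably from the flanks. CAGGTAG, which Zelda, an activator of the first zygotic genes, binds, was in 3 members (0.843%), against 0.421% of flanks (odds ratio 2.01, 0.403 to 10; adjusted p = 0.769 by Fisher's exact test). GAGAG, bound by GAGA factor, was in 9.55% and 11.4% (0.823; adjusted p = 0.769), and the longer repeat GAGAGAGA, which contains it, was in 1 member and 7 of 712 flanks (adjusted p = 0.687 by Fisher's exact test). The further motifs were CACATG (Twist), CAGGTG (Snail), GGATTA (Bicoid), GCCATT (Pleiohomeotic), TGGGAA (Suppressor of Hairless) and AAGGGTTA (Kruppel). They also included AAGTCA (Tailless), AGGNGGC (CTCF), AACNGGTT (Grainyhead) and GAANNTTC (heat shock element). A match is a run of letters and not a measured site, and its absence says nothing of the factor.

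**Figure D5:**
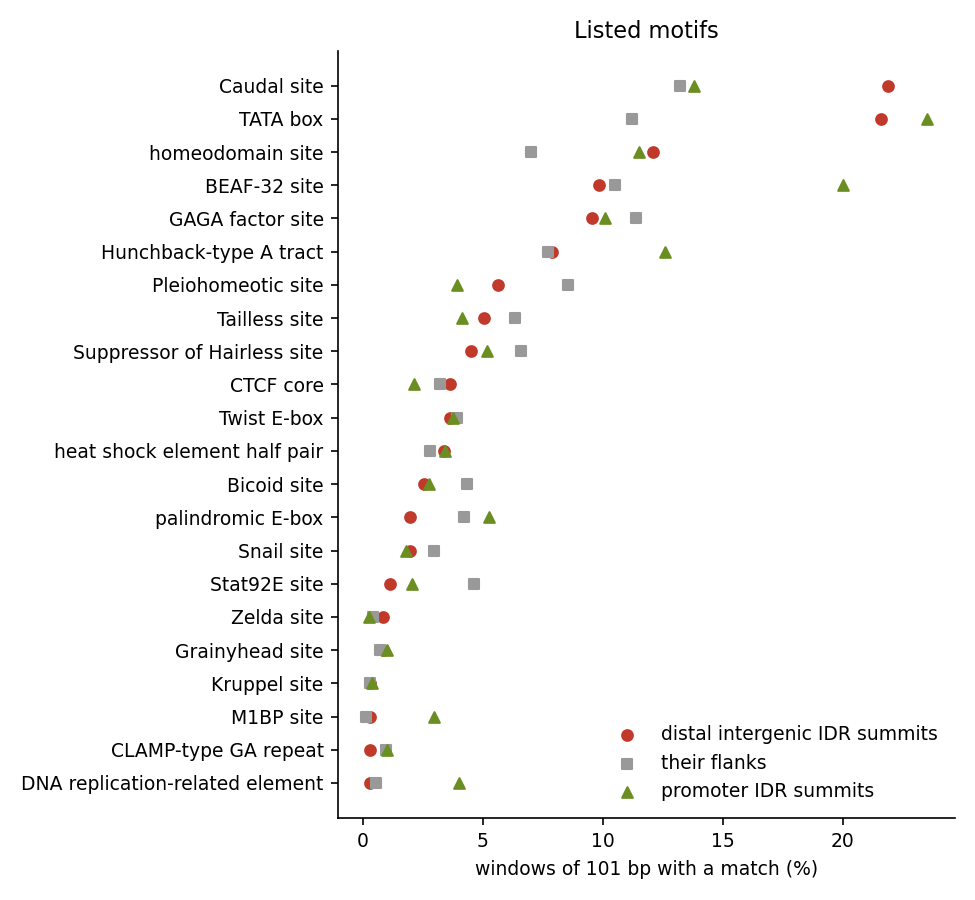
Share of 101 bp windows (horizontal, %) with a match to each of the 22 listed motifs at distal intergenic IDR summits (red circles, n = 356), in their flanks (grey squares, n = 712) and at promoter IDR summits (green triangles, n = 1279). TTTATG (Caudal) stands at 21.9% in red and 13.2% in grey, and CGATA (BEAF-32) at 9.83% in red and 20% in green.

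Without a list, all 2080 strand-merged 6-mers were tested against the flanks, and 32 were called (1.54%), 26 of them higher at members. Of these 26, 19 had at most 1 G or C, and the windows themselves were poorer in GC than the flanks. The exception with the smallest p was ACCGGA, in 25 members (7.02%), against 1.12% of flanks (odds ratio 6.65; adjusted p = 3.45e-04 by Fisher's exact test) and 2.36% of the other distal intergenic summits. Against those other summits, in strata of equal GC count, the exact test called 2 of the 2080 (0.0962%), and both were higher at members. ACCGGA had an odds ratio of 4.06 there (exact stratified test, adjusted p = 1.57e-04). CGGAAA, in 11.8% of members and 6.92% of the other summits, had an odds ratio of 2.30 (exact stratified test, adjusted p = 0.0197). Against the flanks, of which 6.60% held it, CGGAAA was not called (odds ratio 1.89; adjusted p = 0.123 by Fisher's exact test). The chi-square form of the test called both and 5 more, which were AACCGG (3.04), ATCCGG (3.51), CCGGAA (2.71), CATAAA (1.69) and ACAGCG (2.57). The exact test gave adjusted p = 0.0630 for the first 4 of those and 0.117 for the last. Of these 6-mers, CATAAA is TTTATG on the other strand, and most of the rest share letters with one another, so they are not separate findings.

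To ask whether members shared sequences with IDR peaks elsewhere, 8-mers were ranked in the 2089 IDR peaks that are not members. Against those peaks' own flanks 529 of 32896 strand-merged 8-mers were called higher (1.61%), and the 20 of smallest p were carried to the members. Of the 20, 9 were called higher at members than in the members' flanks (45.0%). Repeating the choice of 20 without replicate 2 again gave 9 called 8-mers, of which 7 were among the first 9, and without replicate 3 it gave 9, of which 6 were. Of the 4 with G or C, CCGTTTCC was not among the 20 without replicate 2, and the other 3 were called in both. At equal GC count 4 of the 20 were called against the other distal intergenic summits (20%), and these 4 were the ones shown above in capitals.

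CGGAAACG was in 10 members (2.81%), against 0.421% of flanks (odds ratio 6.83, 1.87 to 25; adjusted p = 0.0103 by Fisher's exact test). CCGTTTCC was in 12 members (3.37%), against 0.421% (8.24, 2.31 to 29.4; exact test, adjusted p = 0.00259). ACCGGAAA was in 11 members (3.09%), against 0.983% (3.21, 1.23 to 8.36; exact test, adjusted p = 0.0448). AACCGGAA was in 9 members (2.53%), against 0.421% (6.13, 1.65 to 22.8; exact test, adjusted p = 0.0123). Against the other distal intergenic summits at equal GC count their odds ratios were 5.05, 5.52, 4.10 and 4.49, in the same order (exact stratified test, adjusted p = 0.00109, 2.64e-04, 0.00109 and 0.00204). The 8-mers overlap one another, and each rests on few members. The remaining 5 of the 9 consist of A and T alone, and none was called at equal GC count. The DRE-type 8-mers ATCGATAG and TATCGATA, which were among the 20, were in 0 and 1 members.

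Taken as 1 group after their values were seen, and so with no test, the 4 GC-containing 8-mers were in 27 members (7.58%) and in 1.83% of their flanks. The share was 4.48% at intronic summits (0.699% in their flanks), 5.24% at promoter summits (0.899%) and 2.07% at the other distal intergenic summits (0.975%). Members thus had the highest share in the flanks as well, so the summit shares alone do not rank the classes by their excess over flanks. At the 356 distal intergenic peaks ranked directly below the IDR list it was 5.90%, with 0.421% in their flanks. Among distal intergenic peaks within the 2445 highest of a single replicate it was 7.42% in replicate 2 and 6.88% in replicate 3. The 4 were grouped because they were called at members, which favours members over the other classes. They had first been ranked in the IDR peaks that are not members, which favours intronic and promoter peaks. The related CCGGAAAC, carried but not called, was in 1.12% of members, 0.699% of intronic summits and 2.11% of promoter summits. Because the 8-mers were chosen in windows within 50 bp of the summit, an excess there is part of the choice. Matches were in 27 members within 50 bp, in 5 members between 50 and 100 bp, and in 1 to 9 members in each further 50 bp step out to 500 bp. Among the 62 members within the 500 highest IDR peaks, 7 had a match (11.3%), and above the median signal of the list it was 16 of 167 members (9.58%), against 11 of 189 at or below it (5.82%).

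The windows printed above show where these matches fell in single members. CG12617 (signal 486.0) ranked 70 in replicate 2 and 80 in replicate 3, cpo (407.2) ranked 115 and 163, and CG11349 (380.6) ranked 222 and 107. CG4702 (315.9) ranked 371 in replicate 2 and 172 in replicate 3, Nepl4 (242.8) ranked 493 and 514, CG5674 (232.3) ranked 524 and 523, and Gdi (199.4) ranked 863 and 718. All 7 were within the 2445 highest of both libraries. The summits were 583 to 7316 bp from the nearest TSS, so that cpo stands close to the limit and CG12617 well past it.

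The 500 bp limit divides a continuous range of distances. The members closest to it were at CG12402 (511 bp, signal 126.5), lncRNA:CR45277 (524 bp, 159.2), CG3348 (528 bp, 130.0), chn (548 bp, 166.4) and hbs (554 bp, 130.2). The nearest peaks on the other side, which are not members, were at CG42571 (493 bp, 162.3), lncRNA:CR44682 (490 bp, 117.7), CG43066 (489 bp, 137.2), CG13896 (486 bp, 205.8) and CG6602 (479 bp, 323.3). Within 1 kb of a TSS lay 50 members and within 2 kb 129. With RefSeq gene models in place of Ensembl's, 357 peaks met the criteria, all 356 members among them. An annotated transposable element held the summit of 1 member.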

How the data were processed

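Peaks were deposited as narrowPeak lists on dm6. Per the notes deposited beside the files, peaks of each replicate were called with a control alignment for comparison, those of the pooled list on both alignments together, and the IDR list holds the peaks past a threshold. Neither the peak caller, nor the aligner, nor that threshold is named in the sources used here. Columns deposited per peak include the authors' signal, −log10 q (not used, as the authors' values are capped) and the summit offset. Per the labels, chromatin was sonicated to 200 to 800 bp.

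Summits were classed against Ensembl release 115 gene models (17683 genes on 6 arms), and sequence was read from the RefSeq copy of the assembly. Shares were compared with two-sided Fisher's exact tests and Benjamini-Hochberg adjustment within a family, with exact (Clopper-Pearson) intervals for shares and log-scale intervals for odds ratios, in Python 3.11.15 with numpy 2.4.6, pandas 2.3.3, SciPy 1.17.1 and matplotlib 3.10.9. Intervals cover counting error of peaks only. Comparisons at equal GC count used the exact conditional form of the Cochran-Mantel-Haenszel test, which replaced its chi-square form after the results of the chi-square form had been seen. Background windows of 101 bp were centred 500 bp to either side. The 6-mer tests were checked on simulated windows with planted 6-mers, in which summits and flanks had the same base composition. That check did not cover the GC difference between summits and flanks, or the 8-mers. Genes named are the neighbours of the 20 highest members, the flanks of intervals with 4 or more members, the 3 highest members per list, CG7271, and members at the 500 bp limit. Further genes of the lists were named after their values were seen. Of the intervals with 4 or more members 1 is not reported here. The members and lists were chosen with earlier results of these data known. Chosen after the files were read were the removal of duplicated mature microRNA records, intervals at arm ends, the current symbol Delta, the comparison of non-coding neighbours, the grouping of the 4 8-mers and the RefSeq and single-replicate member counts.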

Additional observations from a re-analysis of the deposited data

How the results depend on the processing

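The number of members was 306 with TSSs within 1000 bp, 464 with 200 bp and 444 with protein-coding genes only, and 337 to 349 from single replicates. No call of replicate support, signal against introns or arms changed in any alternative run. Of the 9 carried 8-mers called, 7 were called without replicate 2 and 6 without replicate 3, where other 8-mers took their place. Against promoter peaks, high signal stood at an odds ratio of 0.719 with the upper quartile as the limit and from 0.709 to 0.848 without a replicate. The 32 called 6-mers became 118 with windows of 100 bp to either side, 61 with flanks 1000 bp away, 2 against other distal intergenic summits at equal GC count (7 by the chi-square form) and 11 to 51 without a replicate. The 4 motifs became 0 among members above the median signal of the list, where fewer members were tested, 2 against those summits at equal GC count (1 by the chi-square form) and 2 to 4 without a replicate. The odds ratio of the TATA box became 0.958 there. The set of windows and the GC matching changed together. That of non-coding neighbours was 1.27 against peaks directly below the list and 1.14 to 1.17 without a replicate. For differences that were not called, the odds ratio changed side: 1.36 for a TSS over 5 kb away against peaks directly below the list, 0.864 to 0.966 for long intervals without a replicate, and 0.930 to 1.06 for divergent genes. Where no construction of the alternative shows it, the cause was not tested. Replicate support needs both replicates and has no value without one. No pairing of groups across replicates was possible because the replicates form 1 group. The paired tests given above pair the windows of a member. Depth limits cannot be given without read counts.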
